A study of Homo sapiens with 78 samples.

Results

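The Krüppel-like factors (KLFs) are transcription factors that bind GC-rich and CACCC sequences through a zinc finger region at their C-terminal end. Members differ in the rest of the protein. KLF2, KLF4, KLF5 and KLF6 belong to a branch that mostly acts as activators, KLF3 represses genes through the co-repressor CtBP, and KLF9, KLF10, KLF11 and KLF13 can recruit the SIN3A co-repressor, while KLF15 stands outside these branches. Several are known as early response genes of epithelial and endothelial cells, and KLF9 and KLF15 are textbook glucocorticoid targets in other tissues. The 10 members described here (KLF2, KLF3, KLF4, KLF5, KLF6, KLF9, KLF10, KLF11, KLF13 and KLF15) were taken by gene symbol from the 19652 genes of the deposited table, and all 10 were found.

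RNA with a poly(A) tail was sequenced from A549, an established human line derived from a lung carcinoma, of wild type genotype per the labels, that serves as a model of pulmonary epithelium. After a night without serum, cells received IL-1β (1 ng/ml) plus budesonide (300 nM), IL-1β alone, budesonide alone, or no stimulus (NS), for 1, 2, 6, 12 or 24 h. IL-1β is an inflammatory cytokine and budesonide an inhaled glucocorticoid. The 78 libraries used make 20 groups, 18 of 4 libraries and 2 of 3 (cotreated at 12 h, NS at 6 h), and the labels describe 12 h as coming from fewer independent experiments than the other times without saying which of its 15 libraries share one. Cells of 1 line make up all groups, so p-values measure the spread between these cultures, and A549 is a single tumour line.

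The deposited values are transcript abundances in the unit TPM, which scales each library to a common total, after the authors' normalization. Their sums per library lay between 812680 and 1009499, 11738 to 12321 genes reached 1 TPM, and no read counts were among the files used. The study states 1 approximate sequencing depth for its libraries, but the depth each one reached is unknown here. 5 libraries lay farther from their own group than the other 73: IL-1β plus budesonide at 12 h (library 2) and 1 h (library 4), IL-1β at 24 h (library 2), and budesonide at 2 h (library 3) and 12 h (library 2), by a root mean square of 0.367 to 0.469 on the log2 scale against at most 0.3 elsewhere. The epithelial markers EPCAM, KRT8, KRT18, KRT19 and CDH1 each reached 1 TPM under every treatment, with a summed level of 4780 to 10300 TPM in cotreated, 2180 to 6370 in IL-1β-treated, 5210 to 15300 in budesonide-treated and 3700 to 6830 in NS libraries. Of the leukocyte markers CD3E was at 0 in every library, PTPRC stayed below 1 TPM, and CD68, which many cell types express, reached 41.7 TPM. Their summed level was 6.75 to 14.6 TPM in cotreated, 7.2 to 42.5 in IL-1β-treated, 4.59 to 13.0 in budesonide-treated and 6.36 to 13.5 in NS libraries. Their part in the KLF results was not tested. In bulk RNA, fewer expressing cells and less RNA per cell cannot be told apart.

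The stretches before the start sites of the members are unlike. Bases before the RefSeq start of 4 members whose RNA moved are shown to let their base composition be compared, from RefSeq promoter windows on GRCh38.p14, leaving out bases that GENCODE places in an exon of the gene. KLF2 (ENSG00000127528) spans chr19:16324826-16328685 on the plus strand, KLF4 (ENSG00000136826) chr9:107484852-107490482, KLF6 (ENSG00000067082) chr10:3775996-3785281 and KLF9 (ENSG00000119138) chr9:70384604-70414657, all 3 on the minus strand. The KLF4 span includes a longer GENCODE transcript, and its printed stretch precedes the RefSeq start and lies inside that span. The KLF6 stretch ends 72 bases before its RefSeq start, and the others end at it. Capitals mark the GC box GGGCGG on either strand, the kind of sequence that KLF and SP proteins bind.
KLF2, chr19:16324626-16324825, plus strand: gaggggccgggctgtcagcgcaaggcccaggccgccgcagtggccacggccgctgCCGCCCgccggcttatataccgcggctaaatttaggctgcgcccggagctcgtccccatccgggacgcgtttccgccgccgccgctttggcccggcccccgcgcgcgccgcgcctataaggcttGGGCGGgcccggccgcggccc
KLF4, chr9:107489770-107489969, minus strand: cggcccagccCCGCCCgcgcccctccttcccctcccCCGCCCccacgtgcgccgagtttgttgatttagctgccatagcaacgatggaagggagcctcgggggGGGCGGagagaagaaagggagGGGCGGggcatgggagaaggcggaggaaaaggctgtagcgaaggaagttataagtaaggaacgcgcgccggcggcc
KLF6, chr10:3785282-3785459, minus strand: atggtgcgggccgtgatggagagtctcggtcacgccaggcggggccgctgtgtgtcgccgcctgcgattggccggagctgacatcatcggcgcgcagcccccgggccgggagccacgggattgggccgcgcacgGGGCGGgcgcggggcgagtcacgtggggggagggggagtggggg
KLF9, chr9:70414658-70414857, minus strand: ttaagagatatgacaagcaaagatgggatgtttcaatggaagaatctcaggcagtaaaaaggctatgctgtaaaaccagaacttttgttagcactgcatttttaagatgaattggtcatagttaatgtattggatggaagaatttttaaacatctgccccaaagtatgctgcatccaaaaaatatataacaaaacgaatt

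The KLF4 stretch holds 4 GC boxes in 200 bases, the KLF2 stretch 2, the KLF6 stretch 1 in 178 bases and the KLF9 stretch none. G and C make up 77.0% of the KLF2 stretch, 67.0% of KLF4, 76.4% of KLF6 and 33.0% of KLF9. Over the whole 300-base windows, which 8 of the 10 members have, 7 members hold a GC box. Counted by window, 8 of their 10 windows hold 1, against 45.0% of all 35116 windows. G and C make up a median of 58.7% of all windows. The KLF9 window is at 32.7%, 1 KLF5 window at 40.7% and the other member windows at 69.0% to 80.7%. The shares were not matched for base composition. The CACCC box CACCC, on either strand, is in the windows of KLF5, KLF11 and KLF13 and in 59.9% of all windows. The glucocorticoid half-site AGAACA is in 1 member, KLF5, and in 14.8% of all windows. The κB motif was searched in 1 form only, GGGNNTTTCC (N is any base). That form is in no member window and in 1.91% of all, and other forms were not searched. Both strands were searched, and neighbouring motifs can share end bases. These are matches of letters, not sites shown to be bound.

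In unstimulated cells the family ran from abundant to barely detected. Over the 19 NS libraries the median was 48.4 TPM for KLF13, 46.6 for KLF5, 33.9 for KLF15, 22.3 for KLF10, 20.6 for KLF6, 8.53 for KLF3, 5.47 for KLF2, 4.8 for KLF4, 3.69 for KLF11 and 1.08 for KLF9. Neighbours in this order overlapped in their ranges, except that every NS library had more KLF6 (16.4 to 30.5 TPM) than KLF3 (7.18 to 9.6 TPM) and more KLF11 (2.22 to 5.02 TPM) than KLF9 (0.49 to 2.12 TPM). KLF9 was below 1 TPM in 9 of the 19 NS libraries, and the other members were above 1 TPM in all 78 libraries. All 10 passed the filter on low values, at least 1 TPM in 3 libraries, as did 13327 genes.

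Responses were tested with limma on log2(TPM + 0.5), so a fold change is on that scale and understates the change of low genes such as KLF9. A gene was called at a Benjamini-Hochberg adjusted p of at most 0.05 over the 13327 genes together with at least a 2-fold difference, the limits that the study used. Of 330 member comparisons 60 were called, 53 of them higher and 7 lower, and these fell on 5 members: KLF4 (18 of its 33), KLF6 (17), KLF9 (14), KLF10 (6) and KLF2 (5). KLF3, KLF5, KLF11, KLF13 and KLF15 had none. A further 63 comparisons passed the adjusted p at under 2-fold, and "rose" and "fell" are kept for called ones.

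IL-1β against NS was called for 2, 2, 3, 1 and 1 of the 10 members at 1, 2, 6, 12 and 24 h, beside 1.03%, 3.32%, 10.0%, 6.72% and 8.07% of all genes tested. Budesonide against NS was called for 1, 3, 2, 2 and 2 members at those times, beside 0.203%, 0.998%, 3.86%, 5.61% and 9.80% of all genes. Cotreatment against NS was called for 4, 3, 3, 3 and 3 members, beside 1.09%, 3.38%, 7.11%, 6.85% and 10.0%. The median log2 fold change of the 10 members against NS, over the 5 times, was 0.37 with cotreatment, 0.3 with IL-1β and 0.3 with budesonide, and over all genes tested -0.04, -0.04 and -0.01. All 3 comparisons share the NS libraries. The members were chosen with earlier results of these data known, so their medians do not stand for the whole family. The 3 other KLF genes tested had medians of -0.19 with cotreatment, -0.22 with IL-1β and -0.07 with budesonide. Adding budesonide to IL-1β was called for 0, 2, 2, 3 and 4 members at 1 to 24 h, beside 0.240%, 1.32%, 5.42%, 6.57% and 6.73% of all genes, where at 1 h limma gave an unadjusted p under 0.05 for 4 members. Adding IL-1β to budesonide was called for 1, 1, 1, 1 and 2, beside 0.878%, 2.96%, 4.98%, 2.24% and 2.38%. The interaction is the log2 fold change of cotreatment from which those of IL-1β and of budesonide have been subtracted. It was called for 1, 0, 1, 1 and 1 members, beside 0.0975%, 0.548%, 2.97%, 2.95% and 4.99%. At 2 h its unadjusted p was under 0.05 for 2 members.

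**Figure D1:**
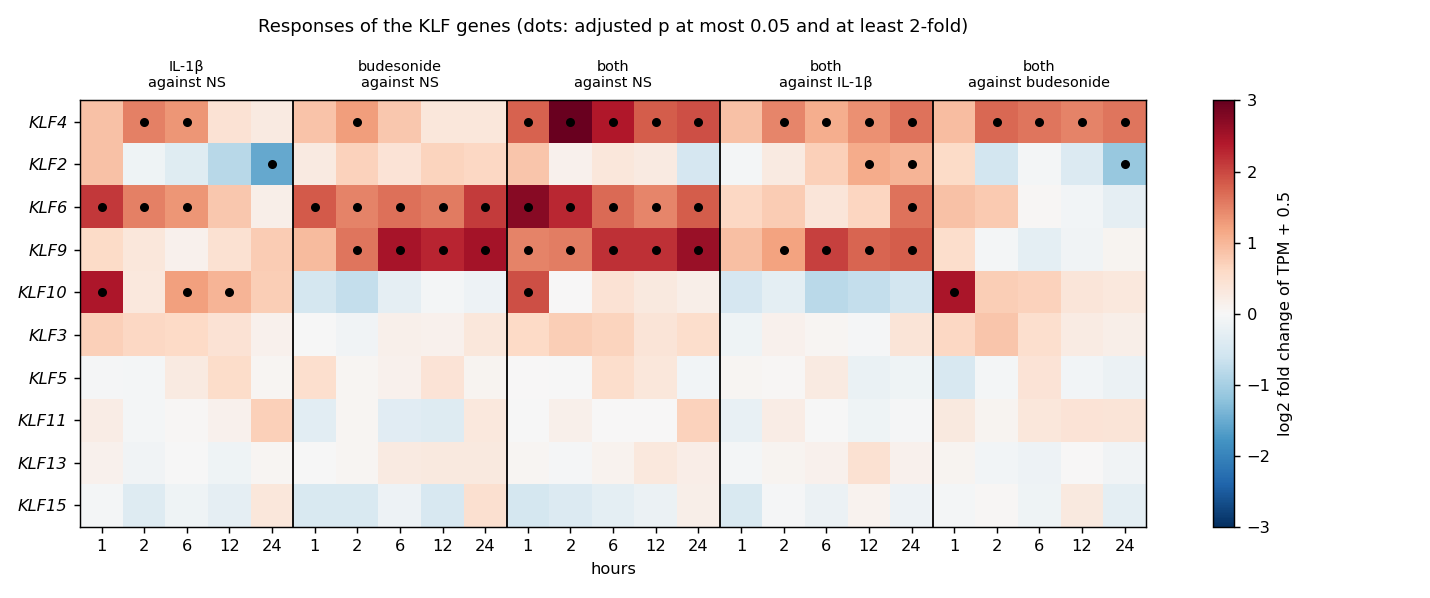
Log2 fold changes of TPM + 0.5 (color) of the 10 KLF genes (y axis) for 5 comparisons at 1 to 24 h (x axis), where a dot marks a called value. KLF4 carries dots in all 5 cotreatment columns against NS but in 2 for IL-1β and 1 for budesonide, KLF9 has none for IL-1β against NS, and KLF10 has dots for IL-1β and none for budesonide against NS.

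KLF4 is a regulator of epithelial differentiation and barrier genes. It was the only one of the 10 members called higher with cotreatment than with each agent alone, at 2, 6, 12 and 24 h. At 2 h it stood at 38.5, 40.8, 56.3 and 39.9 TPM in cotreated libraries, 13.4, 15.9, 21.3 and 12.6 TPM with IL-1β, 11.8, 12.8, 13.8 and 12.8 TPM with budesonide, and 4.12, 5.33, 6.55 and 4.6 TPM in NS. Every cotreated library was above every other library of that time, and all singly treated ones were above all NS ones. The log2 fold change against NS was 2.97 ± 0.15 (SE; adjusted p = 1.13e-25) with cotreatment, 1.52 ± 0.15 (adjusted p = 1.05e-12) with IL-1β and 1.25 ± 0.15 (adjusted p = 3.05e-09) with budesonide. KLF4 with cotreatment was above IL-1β alone by 1.46 ± 0.15 and above budesonide alone by 1.72 ± 0.15.

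At 24 h KLF4 with either single agent overlapped NS, and only cotreatment was called against NS. It was at 19.4, 19.8, 20.0 and 19.5 TPM in cotreated libraries, against 5.99, 5.53, 6.93 and 5.49 TPM with IL-1β, 6.97, 4.85, 6.39 and 6.58 TPM with budesonide and 3.95, 4.42, 5.79 and 5.24 TPM in NS. The cotreated libraries stood apart from the other 12, which overlapped each other. KLF4 rose by 1.93 ± 0.15 with cotreatment against NS (adjusted p = 3.12e-17), while the difference from NS was 0.28 (95% interval -0.02 to 0.59, adjusted p = 0.147) with IL-1β and 0.33 (0.02 to 0.63, adjusted p = 0.0807) with budesonide. The KLF4 interaction was 0.03 ± 0.22, 0.2 ± 0.22 and 0.28 ± 0.22 at 1, 2 and 6 h, none called, and 1.04 ± 0.22 at 12 h (adjusted p = 0.000658) and 1.32 ± 0.22 at 24 h (adjusted p = 2.64e-06). The study tested additivity of its luciferase reporters on a linear scale, as fold minus 1. Here TPM group means were put on that scale, with no test. The gain at 24 h was 3.06 with cotreatment and 0.512 for the sum of both singles. At 2 h it was 7.52 with cotreatment and 3.56 for the sum, so KLF4 exceeded the linear sum also where the log2 interaction was not called.

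At 1 h KLF4 reached 14.5 to 24.7 TPM in cotreated, 7.87 to 14.3 with IL-1β, 9.52 to 11.2 with budesonide and 5.26 to 5.77 in NS libraries, and only cotreatment against NS was called (1.78 ± 0.15). At 1 h, the KLF4 values of IL-1β against NS (0.89), of cotreatment against IL-1β (0.89) and of cotreatment against budesonide (0.92) lay just under 2-fold. They passed it without 1 library: 1.01 without IL-1β library 4, 1.04 without IL-1β library 3 or cotreated library 4, and 1.06 without cotreated library 4. The lowest values with 1 library left out were 0.74, 0.76 and 0.81. The KLF4 interaction at 12 h was 0.98, 0.98 and 0.95 without NS library 1, IL-1β library 2 or budesonide library 3, just under the limit. Cotreatment against IL-1β at 6 h (1.08 ± 0.15) was 0.97 without IL-1β library 4.

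**Figure D2:**
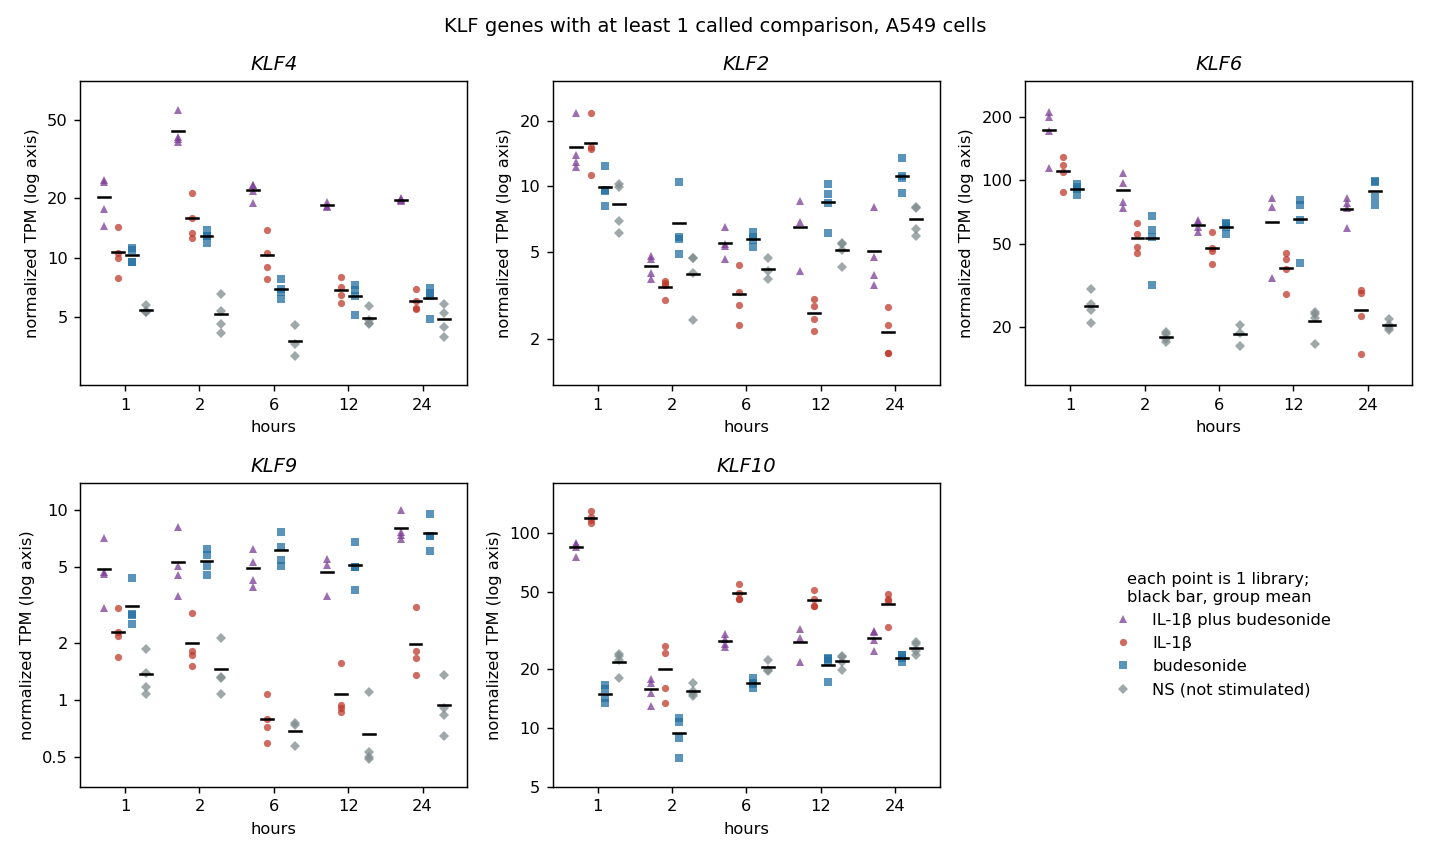
Normalized TPM (log axis) by hours for the 5 members with called comparisons, 1 point per library, ordered within each time as cotreated, IL-1β, budesonide and NS, with the group mean as a black bar. At 24 h the cotreated KLF4 libraries sit at 19.4 to 20.0 TPM above all others, KLF9 is high wherever budesonide was given from 2 h on, and KLF10 peaks with IL-1β at 1 h.

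KLF2, the closest relative of KLF4 in the activator branch and a brake on inflammatory genes in endothelium, went the other way with IL-1β at late times. At 24 h it stood at 1.72, 2.81, 1.72 and 2.31 TPM with IL-1β, against 8.02, 7.99, 5.93 and 6.35 TPM in NS, with no overlap. It fell by 1.53 on the log2 scale (SE 0.21, adjusted p = 8.19e-09). At 12 h KLF2 was at 2.17 to 3.04 TPM with IL-1β and 4.29 to 5.51 TPM in NS (-0.84 ± 0.21, adjusted p = 0.000783, under 2-fold). At 1 h the order was reversed, with 11.3, 15.1, 14.9 and 21.6 TPM with IL-1β and 6.14, 6.94, 9.89 and 10.2 TPM in NS (0.88 ± 0.21, adjusted p = 0.00444), a difference that was 1.02 and called without IL-1β library 1, and 0.72 (adjusted p = 0.07) without IL-1β library 4. The change of the KLF2 response to IL-1β, 24 h minus 1 h, was -2.41 ± 0.29 (adjusted p = 9.91e-10).

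Budesonide alone gave no called KLF2 value, although the libraries at 24 h did not overlap: 11.1, 10.9, 9.34 and 13.5 TPM with budesonide and 8.02, 7.99, 5.93 and 6.35 TPM in NS (0.63 ± 0.21, adjusted p = 0.0108). Cotreated KLF2 at 24 h, at 8.03, 4.74, 3.94 and 3.53 TPM, lay above IL-1β alone and below budesonide alone in every library. It rose against IL-1β by 1.03 ± 0.21 (adjusted p = 4.76e-05) and fell against budesonide by 1.13 on the log2 scale (SE 0.21, adjusted p = 3.23e-05), and it overlapped NS. Both calls lie near 2-fold: the first was 0.95, 0.95 and 0.80 without IL-1β library 1, IL-1β library 3 or cotreated library 1, and the second was -1 (adjusted p = 0.000749) without cotreated library 4, under the limit before rounding. At 12 h cotreated KLF2 (4.09, 8.53 and 6.85 TPM) was above IL-1β (2.17 to 3.04 TPM) by 1.11 ± 0.22, and by 0.90 (adjusted p = 0.00425) without cotreated library 2, one of the 5 libraries that stood apart.

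KLF6, an activator induced early in injured tissue, was the only member called against NS with each single agent at 1 h. KLF4 also lay above NS without overlap then, by 1.97-fold with IL-1β and 1.89-fold with budesonide on group means, under the limit. At 1 h KLF6 stood at 171, 200, 212 and 115 TPM in cotreated libraries, 110, 88.5, 129 and 118 TPM with IL-1β, 85.3, 92.6, 91.1 and 96.3 TPM with budesonide and 21.0, 24.3, 25.8 and 30.5 TPM in NS. All treated libraries were far above NS, and cotreated library 4, one of the 5 that stood apart, lay among the IL-1β ones. The log2 fold change against NS was 2.73 ± 0.2 with cotreatment (adjusted p = 5.39e-18), 2.11 ± 0.2 with IL-1β (adjusted p = 2.72e-13) and 1.84 ± 0.2 with budesonide (adjusted p = 4.06e-10).

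The IL-1β response of KLF6 then faded and the budesonide response did not. KLF6 with IL-1β was at 45.3 to 62.8 TPM at 2 h, 40.1 to 56.6 at 6 h, 28.7 to 45.0 at 12 h, and at 24 h 29.2, 14.9, 22.6 and 30.0 TPM, which overlapped the 22.0, 19.4, 20.6 and 19.9 TPM of NS (0.18, 95% interval -0.21 to 0.58). With budesonide it was at 99.7, 76.3, 83.3 and 98.5 TPM at 24 h, a rise against NS of 2.09 ± 0.2 (adjusted p = 5.23e-14). All 5 budesonide comparisons of KLF6 against NS were called, from 1.48 at 2 h to that value. The 24 h minus 1 h difference was -1.92 ± 0.28 (adjusted p = 1.54e-07) in the IL-1β response and 0.26 (95% interval -0.31 to 0.82) in the budesonide response.

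With both agents KLF6 stayed high at all times, at 78.0, 59.5, 73.8 and 82.5 TPM at 24 h, where it rose against IL-1β by 1.62 ± 0.2 (adjusted p = 5.95e-10) and overlapped budesonide alone. The cotreated level was below the product of both single folds: the KLF6 interaction was -1.3 ± 0.29 at 6 h (adjusted p = 0.00116). On the linear scale of fold minus 1, from TPM group means, the KLF6 gain at 6 h was 2.28 with cotreatment. The sum of both singles was 3.77 then. At 1 h the gain was 5.87 and the sum 5.98. The 1 h interaction, -1.21 ± 0.28, was called at an adjusted p of 0.0454 and lost that call without any 1 of 12 of the 16 libraries, with adjusted p between 0.0713 and 0.28 and log2 values between -1.25 and -1.03 in those. The 12 h interaction (-0.91 ± 0.29) was past 2-fold and called without any 1 of 4 libraries: -1.07 and -1.14 without cotreated library 1 or 4, -1.04 without IL-1β library 2 and -1.12 without budesonide library 2. It was -0.51 (adjusted p = 0.298) without cotreated library 2, so single libraries decide this value in both directions. Cotreatment against IL-1β at 12 h was 0.64 ± 0.21 and, without cotreated library 2 (34.2 TPM, against 74.6 and 82.3 TPM in the other cotreated libraries), 1.04, but 0.41 (adjusted p = 0.174) without cotreated library 4. Likewise cotreatment against budesonide at 1 h was 0.89 ± 0.2 and, without cotreated library 4, 1.08, with 0.79 as the lowest value when 1 library was left out (cotreated library 3).

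**Figure D3:**
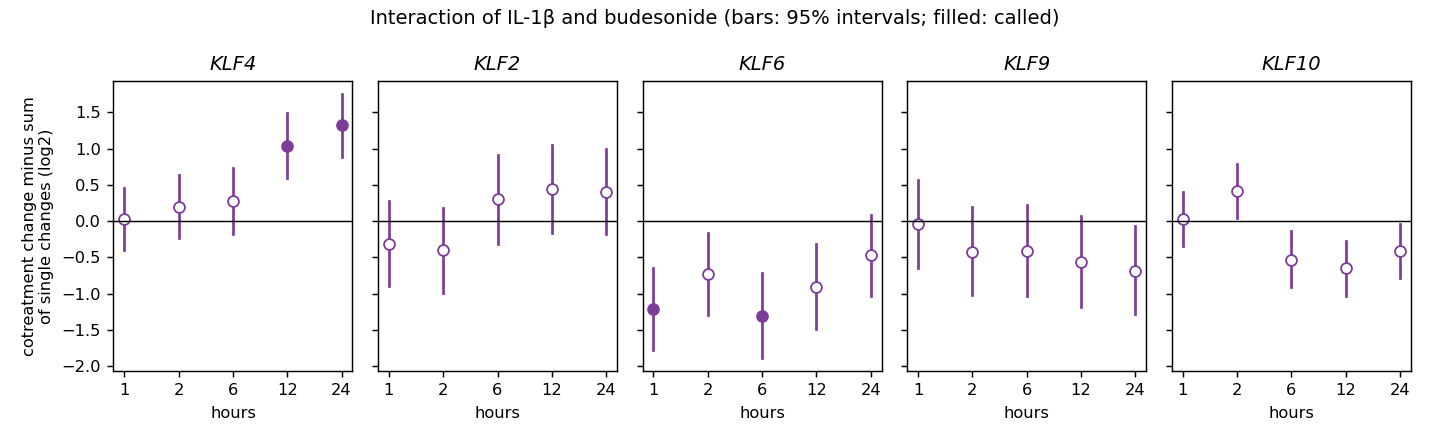
Interaction on the log2 scale (y axis, point and 95% interval) by hours for the 5 members with called comparisons, filled where called. KLF4 moves to 1.04 at 12 h and 1.32 at 24 h, above 0. The KLF6 points lie below 0 at every time, with -1.3 at 6 h, and at 24 h the KLF6 interval reaches 0.

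KLF5, the remaining activator, promotes growth of epithelial cells and was abundant and variable. Its libraries lay between 23.5 and 102 TPM. At 24 h it was at 39.7 to 73.2 TPM in cotreated, 44.6 to 58.7 with IL-1β, 43.7 to 71.8 with budesonide and 37.4 to 76.1 TPM in NS libraries. No comparison of KLF5 passed the adjusted p. The 1 pair of groups without overlap was IL-1β (47.2 to 65.9 TPM) and NS (30.6 to 45.3 TPM) at 12 h, which differed by 0.54 (95% interval -0.02 to 1.1, adjusted p = 0.133). The spread of its libraries around their group means was 0.41 on the log2 scale, against 0.15 for KLF13, so the intervals were wide: at 24 h -0.52 to 0.61 for IL-1β and -0.49 to 0.64 for budesonide against NS.

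KLF3, the CtBP-binding repressor, was higher with IL-1β by less than 2-fold from 1 to 12 h. At 2 h it stood at 13.8, 13.8, 15.2 and 13.3 TPM in cotreated libraries, 11.6, 12.0, 14.3 and 13.3 TPM with IL-1β, 8.22, 8.06, 6.43 and 7.98 TPM with budesonide and 8.46, 7.56, 8.55 and 8.35 TPM in NS. Every library with IL-1β was above every one without it. The differences from NS were 0.74 ± 0.13 with cotreatment (adjusted p = 1.94e-05), 0.61 ± 0.13 with IL-1β (adjusted p = 0.000465) and -0.1 (95% interval -0.37 to 0.17) with budesonide. KLF3 differed from NS in this way with IL-1β at 1, 2, 6 and 12 h, between 0.43 and 0.71, and with cotreatment at all 5 times, between 0.39 and 0.74. At 24 h the single agents stood otherwise: IL-1β libraries (6.49 to 11.8 TPM) overlapped NS (8.53 to 9.6 TPM; 0.14, 95% interval -0.13 to 0.41), and budesonide libraries (10.7 to 12.7 TPM) lay above NS (0.34 ± 0.13, adjusted p = 0.0389). GENCODE places an RNA on the opposite strand over 730 bases of KLF3, 766 of KLF4 and 416 of KLF11. The strand setting of the quantification is not given in the sources used here, so reads from those stretches could belong to either gene and the levels of these members carry that uncertainty.

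KLF9 is a SIN3A-binding repressor and a known glucocorticoid target. Its level followed budesonide and was not called with IL-1β alone. KLF6, which was called with budesonide against NS at every time, shared the budesonide part. At 6 h it stood at 4.28, 5.32, 6.24 and 3.95 TPM in cotreated libraries, 0.598, 0.796, 1.08 and 0.724 TPM with IL-1β, 5.45, 6.41, 7.66 and 5.06 TPM with budesonide and 0.763, 0.737 and 0.574 TPM in NS. The 8 libraries with budesonide were all above the 7 without it. KLF9 rose by 2.47 ± 0.23 (adjusted p = 1.1e-13) with budesonide and by 2.18 ± 0.23 (adjusted p = 5.76e-12) with cotreatment against NS, and by 2.06 ± 0.21 with cotreatment against IL-1β (adjusted p = 2.51e-12). On group means this was 8.89-fold and 7.16-fold against NS.

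The KLF9 response built up after the first hour. Budesonide against NS was 0.95 ± 0.21 at 1 h (2.86, 2.81, 4.39 and 2.52 TPM with budesonide and 1.17, 1.39, 1.85 and 1.08 TPM in NS, adjusted p = 0.00795, under 2-fold) and 2.5 ± 0.21 at 24 h (7.33, 7.35, 9.59 and 6.11 TPM with budesonide and 0.838, 0.912, 1.36 and 0.649 TPM in NS). The difference between those responses was 1.54 ± 0.3 (adjusted p = 3.87e-05). The 1 h value was 1.07 without NS library 3 and 1.03 without budesonide library 4, and then called, and 0.8 (adjusted p = 0.13) without budesonide library 3. Cotreatment against NS was called for KLF9 at all 5 times, from 1.49 at 1 h to 2.58 at 24 h. Cotreatment against IL-1β at 2 h (1.2 ± 0.21) was 0.99 without cotreated library 3, and at 1 h (0.91 ± 0.21) it was 1.04 without IL-1β library 3, 1.10 without cotreated library 4 and 0.73 (adjusted p = 0.182) without cotreated library 3. IL-1β alone gave no called KLF9 value, with 1.81, 1.35, 3.08 and 1.67 TPM against the NS values above at 24 h (0.76 ± 0.21, adjusted p = 0.00344, and 2.1-fold on group means). No KLF9 comparison of cotreatment with budesonide alone was called.

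KLF10, a SIN3A-binding repressor first known as an early gene of TGF-β signaling, rose with IL-1β at 1 h and again at 6 and 12 h, but was not called at 2 h. At 1 h it stood at 84.7, 89.7, 88.7 and 75.7 TPM in cotreated libraries, 121, 113, 130 and 117 TPM with IL-1β, 14.2, 15.8, 13.5 and 16.6 TPM with budesonide and 18.1, 22.4, 23.4 and 23.9 TPM in NS. No 2 of these 4 groups overlapped. KLF10 rose by 2.43 ± 0.13 with IL-1β (adjusted p = 2.02e-24) and by 1.93 ± 0.13 with cotreatment (adjusted p = 1.79e-19) against NS, and by 2.46 ± 0.13 with cotreatment against budesonide (adjusted p = 1.32e-24). At 2 h KLF10 with IL-1β was at 13.5, 16.0, 26.4 and 24.2 TPM and overlapped the 15.5, 14.6, 17.1 and 15.0 TPM of NS. At 6 h it was again above, at 46.0, 49.2, 55.2 and 46.1 TPM with IL-1β and 19.9, 22.3 and 19.7 TPM in NS, a rise of 1.23 ± 0.14 (adjusted p = 4.53e-11). At 12 h the rise was 1.02 ± 0.13, and 0.97 or 0.96 without NS library 3 or IL-1β library 3, and at 24 h the difference was 0.73 ± 0.13 (adjusted p = 5.14e-06, under 2-fold). The 24 h minus 1 h change of the IL-1β response was -1.7 ± 0.18 (adjusted p = 2.54e-11).

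KLF10 was lower with budesonide alone by less than 2-fold at the early times. The difference of budesonide from NS was -0.53 ± 0.13 at 1 h (adjusted p = 0.0268) and -0.71 ± 0.13 at 2 h (adjusted p = 7.22e-05), when it was at 11.2, 8.88, 6.99 and 10.7 TPM. At 12 and 24 h budesonide libraries overlapped NS, with differences of -0.07 (95% interval -0.33 to 0.19) and -0.16 (-0.42 to 0.1). Cotreatment against IL-1β was -0.5 ± 0.13 at 1 h, -0.8 ± 0.13 at 6 h (26.0, 28.7, 30.5 and 27.0 TPM in cotreated libraries), -0.72 ± 0.14 at 12 h and -0.56 ± 0.13 at 24 h, with adjusted p between 1.07e-06 and 0.0331. None of these reached 2-fold, yet no cotreated library overlapped the IL-1β libraries at those 4 times.

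KLF11 and KLF13 share the SIN3A-binding motif with KLF9 and KLF10. KLF11 was at 2.0 to 6.85 TPM. In NS it stood at 3.14, 2.37, 2.22 and 2.55 TPM at 24 h, against 4.68, 4.31, 5.02 and 4.25 TPM at 1 h, a difference without overlap of -0.73 ± 0.13 (adjusted p = 1e-04, 24 h against 1 h). At 24 h KLF11 stood at 5.08, 4.37, 4.69 and 3.73 TPM in cotreated libraries and 5.37, 3.78, 4.42 and 4.69 TPM with IL-1β, above those NS values, by 0.7 ± 0.13 and 0.72 ± 0.13 (adjusted p = 9.72e-06 and 6.08e-06). No member was called between NS at 24 h and NS at 1 h, beside 0.630% of all genes, and limma gave an unadjusted p under 0.05 for 2. KLF13 varied least, between 36.7 and 82.5 TPM. At 24 h it was at 70.2, 69.5, 62.6 and 67.0 TPM with budesonide and 54.2, 52.1, 55.2 and 56.9 TPM in NS, without overlap (0.3 ± 0.11, adjusted p = 0.0212), far under 2-fold.

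KLF15, which drives amino acid breakdown in liver and muscle and responds to glucocorticoids there, had no comparison past the adjusted p. At 6 h it stood at 20.8, 31.0, 27.4 and 21.1 TPM in cotreated libraries, 29.2, 35.8, 31.2 and 18.7 TPM with IL-1β, 21.2, 33.5, 29.0 and 26.9 TPM with budesonide and 19.0, 45.8 and 32.5 TPM in NS, all overlapping. At 1 h cotreated (21.5 to 32.2 TPM) and NS libraries (32.3 to 43.5 TPM) only just did not overlap (-0.52, 95% interval -1.16 to 0.13). Its spread was the widest of the 10, 0.47 on the log2 scale. The budesonide difference from NS was -0.16 at 6 h (95% interval -0.85 to 0.54) and 0.47 at 24 h (-0.17 to 1.12), so that at 24 h a 2-fold rise lies inside the interval.

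**Figure D4:**
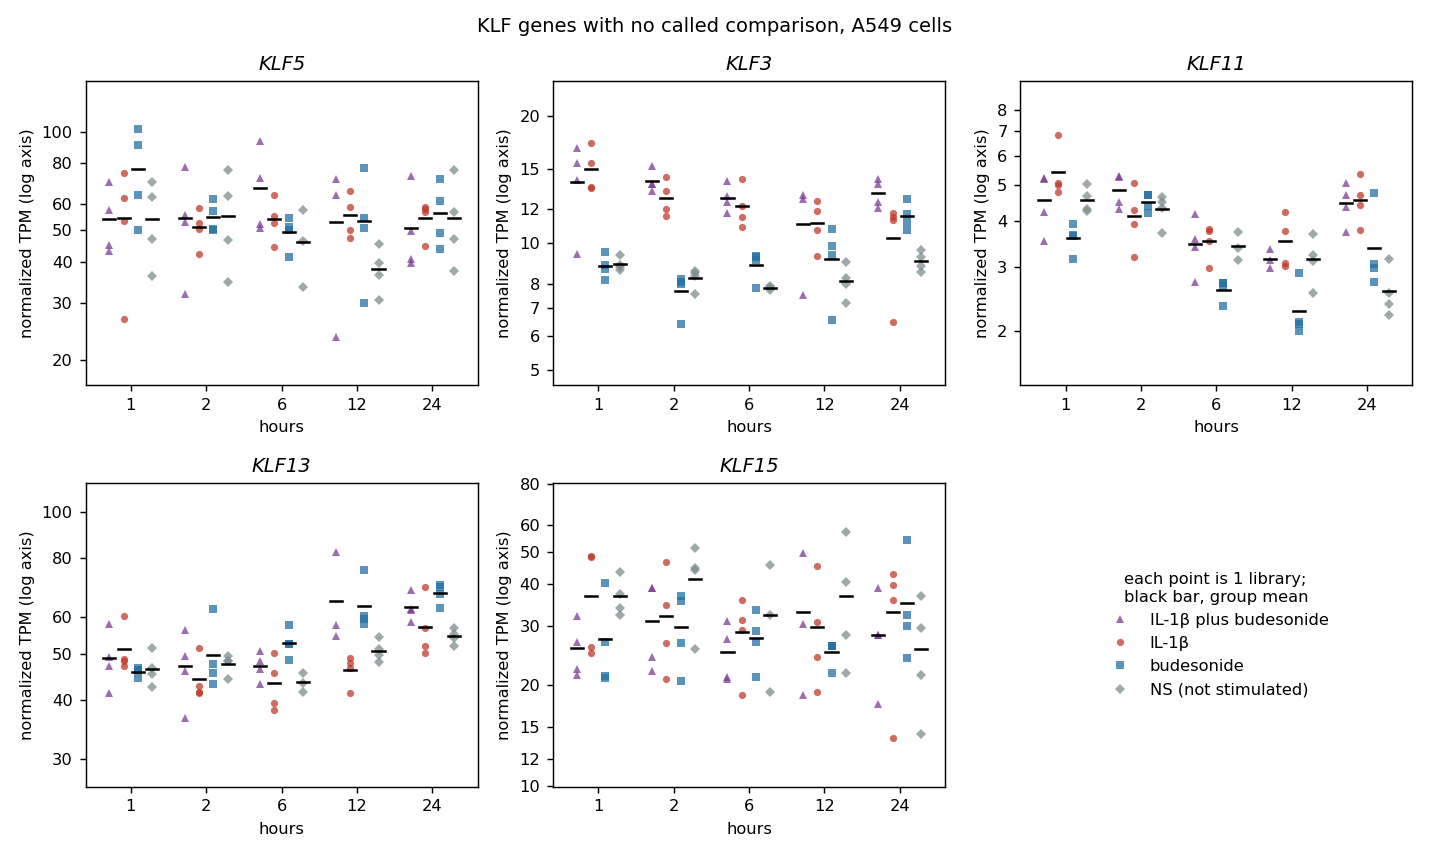
Normalized TPM (log axis) by hours for the 5 members with no called comparison, drawn as for the called ones. KLF3 with IL-1β (11.6 to 14.3 TPM at 2 h) lies above NS (7.56 to 8.55 TPM), KLF11 in NS lies lower at 24 h (2.22 to 3.14 TPM) than at 1 h (4.25 to 5.02 TPM), and at 24 h the KLF5 and KLF15 libraries of all treatments overlap.

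The change of response between 1 and 24 h was called for 3 members with IL-1β (KLF2, KLF6 and KLF10, all lower at 24 h), beside 7.34% of all genes, and for 1 with budesonide (KLF9, higher at 24 h), beside 9.07%. The highest group means of the 5 called members fell in 4 of the 20 groups: KLF10 (120 TPM) and KLF2 (15.7 TPM) with IL-1β at 1 h, KLF6 (175 TPM) with cotreatment at 1 h, KLF4 (43.9 TPM) with cotreatment at 2 h and KLF9 (8.04 TPM) with cotreatment at 24 h. Over the 20 group means Pearson's r between members was highest for KLF6 with KLF9 (0.73) and KLF3 with KLF4 (0.7), and lay at 0.07 for KLF4 with KLF10 and -0.16 for KLF9 with KLF10. These points share treatments and libraries and are a description.

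Genes outside the family with the most similar pattern over the 20 group means of log2(TPM + 0.5) were named for each member by the highest Pearson's r. For KLF9 they were ERRFI1 (0.97), ZFAND5 (0.931) and FAM43A (0.927). KLF6 ran with ZFP36 (0.908), RHOB (0.907) and DUSP1 (0.834), and KLF4 with ADRB1 (0.906) and RCAN1 (0.866). KLF10 ran with IER2 (0.881), CLCF1 (0.872) and JUN (0.844), and KLF3 with ZFP36L1 (0.926), PNRC1 (0.924) and TNFAIP3 (0.896). KLF13 had SERINC2 (0.947), ARL6IP5 (0.932) and HK1 (0.925). The nearest genes of KLF2, KLF5, KLF11 and KLF15 were less alike, at most 0.776 for SIK1B (a near copy of SIK1, so its reads may be shared) beside KLF2, 0.61 for MTAP beside KLF5, 0.788 for MEMO1 beside KLF11 and 0.84 for PRRG3 beside KLF15.

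Of the other 8 KLF genes in the table (KLF1, KLF7, KLF8, KLF12, KLF14, KLF16, KLF17 and KLF18) 3 passed the filter on low values and none was called by limma, with an unadjusted p under 0.05 in 5 of 15 IL-1β, 1 of 15 budesonide and 4 of 15 cotreatment tests against NS. KLF7 lay between 2.42 and 21.7 TPM and KLF16 between 3.51 and 12.8 TPM, and both came close to the 2-fold limit at 2 h. KLF7 differed from NS by 0.99 ± 0.29 with cotreatment (adjusted p = 0.013), and KLF16 by -0.83 ± 0.17 with cotreatment (adjusted p = 0.000148) and -0.99 ± 0.17 with IL-1β (adjusted p = 5.63e-06). Of the 9 SP genes, the nearest relatives of the KLFs, 6 were tested and 1 was called, SP6, which rose at 2 h with IL-1β (2.12 to 3.17 TPM, against 0.569 to 0.761 TPM in NS, 1.5 ± 0.13) and with cotreatment (1.3 to 2.51 TPM, 1.07 ± 0.13). SP9 came nearest to the limit among the others, at -0.97 ± 0.14 with cotreatment against IL-1β at 24 h (adjusted p = 3.43e-08). Of the 7 co-repressors that KLF proteins recruit (CTBP1, CTBP2, SIN3A, SIN3B, HDAC1, HDAC2 and HDAC3) all were tested and none was called, with an unadjusted p under 0.05 in 11 of 35 IL-1β, 9 of 35 budesonide and 14 of 35 cotreatment tests against NS. Over these pathways the share of all genes called at any time was 16.3% for IL-1β, 11.2% for budesonide and 15.4% for cotreatment against NS.

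In the MEK5, ERK5 and MEF2 chain that induces KLF2 and KLF4 in endothelial cells, 5 of 6 genes were tested. At 2 h MEF2D fell to 7.37 to 7.95 TPM with cotreatment, against 15.2 to 17.9 TPM in NS (-1.06 ± 0.13, adjusted p = 1.27e-09), and MEF2B, which was low, fell with IL-1β to 0.0929 to 0.769 TPM, against 0.894 to 1.81 TPM in NS (-1.24 ± 0.34, adjusted p = 0.00515). Against NS 1 of the 5 was called with IL-1β, 1 with cotreatment and none with budesonide, beside the shares of all genes given above. None was called higher. MAPK7, which encodes ERK5, was higher by less than 2-fold with cotreatment at 2 h, by 0.68 ± 0.13 against NS (adjusted p = 2.29e-05). With IL-1β at 24 h MAPK7 was lower, at -0.53 ± 0.13 against NS (adjusted p = 0.000468). MAP2K5, which encodes MEK5, was higher by less than 2-fold with budesonide at 24 h, by 0.73 ± 0.11 (adjusted p = 3.81e-08). An unadjusted p under 0.05 was found in 7 of 25 cotreatment, 5 of 25 IL-1β and 5 of 25 budesonide tests against NS. Of 8 amino acid catabolism genes tied to KLF15, 6 were tested. Called at any time against NS were 1 with IL-1β, 2 with budesonide and 1 with cotreatment, beside 16.3%, 11.2% and 15.4% of all genes. These calls against NS were all in PRODH or GLUL. With cotreatment against IL-1β 2 of the 6 were called, beside 10.7% of all genes. PRODH, which starts proline breakdown, stood at 24 h at 6.8 to 10.1 TPM with cotreatment, 0.978 to 2.05 TPM with IL-1β, 10.6 to 17.2 TPM with budesonide and 3.38 to 5.42 TPM in NS, so it fell with IL-1β (-1.28 ± 0.26), rose with budesonide (1.49 ± 0.26) and rose with cotreatment against IL-1β (2.13 ± 0.26). GLUL, which makes glutamine, rose at 24 h with budesonide (79.4 to 118 TPM, against 29.9 to 38.8 TPM in NS, 1.47 ± 0.19) and with cotreatment (65.3 to 114 TPM, 1.31 ± 0.19). KLF15 itself had no called value in any of these comparisons.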

How the data were processed

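The authors prepared stranded poly(A) libraries and, per the labels and the study's methods, quantified them with kallisto on the GRCh38/hg38 transcriptome and normalized them in sleuth. The deposited table holds gene-level normalized TPM, a signal scaled by the authors, with no counts. The study gives 1 approximate depth for its libraries, and the exact depth and counting error of each library are unknown here. A second deposited table holds the authors' own comparisons and was not used. 1 library of the table, with no matching label, was not used.

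The 78 labelled libraries were fitted with limma 3.58.1 in R 4.3.3 on log2(TPM + 0.5), with 1 mean per group, 58 residual degrees of freedom and a trended prior, on the 13327 genes that reached 1 TPM in 3 or more libraries. The study's Wald test on its own estimates could not be rerun from these values. P-values were two-sided and adjusted by Benjamini-Hochberg over all genes tested in each comparison. A gene was called at an adjusted p of at most 0.05 and at least 2-fold (1 on the log2 scale). The fit was checked on data made with known fold changes. Promoter windows came from RefSeq (GRCh38.p14) and gene positions from GENCODE 44.

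The members and the lists of related genes were chosen with earlier results of these data known. All members are named. For each, the 3 other genes with the highest Pearson's r over the 20 group means are named, and of the lists, genes that were called. A few items are not reported here. Alternatives were other pseudocounts (1, 0.1), filters (none, a mean of 5 TPM), median-of-ratios scaling, quantile normalization, the replicate number as a block, separate fits by time, each library left out in turn, and the 5 farthest libraries left out.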

Additional observations from a re-analysis of the deposited data

Results flagged for a closer look

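The KLF responses that differed between times or between the presence and absence of the other agent were, on the log2 scale with limma's Benjamini-Hochberg adjusted p, the fall of the IL-1β response from the early to the late time in KLF2 (-2.41, 9.91e-10), KLF6 (-1.92, 1.54e-07) and KLF10 (-1.7, 2.54e-11), the growth of the budesonide response in KLF9 (1.54, 3.87e-05), and the interactions of KLF4 at 12 h (1.04, 0.000658) and 24 h (1.32, 2.64e-06) and of KLF6 at 1 h (-1.21, 0.0454) and 6 h (-1.3, 0.00116).

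Each of the 10 members was checked in the 18 groups of 4 libraries. In 17 of these 180 checks, 1 library lay far from the other 3, which chance gives in about 1 of 20 independent checks. These checks share libraries and are not independent. 5 of these involve 3 of the 5 libraries that stood apart over all genes: KLF3 and KLF5 in IL-1β library 2 at 24 h (6.49 TPM against 11.3 to 11.8, and 44.6 TPM against 56.8 to 58.7), KLF3 in budesonide library 3 at 2 h (6.43 TPM against 7.98 to 8.22) and KLF10 and KLF13 in budesonide library 2 at 12 h (17.2 TPM against 22.2 to 22.8, and 75.5 TPM against 58.0 to 60.2). KLF3 was low in budesonide library 2 at 6 h (7.79 TPM against 9.09 to 9.31). KLF4 was high in cotreated library 3 at 2 h (56.3 TPM against 38.5 to 40.8). KLF9 was high in library 3 at 12 h both with IL-1β (1.57 TPM against 0.869 to 0.946) and in NS (1.11 TPM against 0.49 to 0.536). The library numbered 3 had the highest KLF9 in each of the 18 groups, mostly by less than these checks flag. KLF11 was high in IL-1β library 3 at 1 h (6.85 TPM against 4.8 to 5.05) and budesonide library 4 at 12 h (2.88 TPM against 2.0 to 2.12), and low in budesonide library 3 at 6 h (2.34 TPM against 2.65 to 2.7). KLF13 was high in IL-1β library 4 at 1 h (60.4 TPM against 47.2 to 49.0) and 2 h (51.7 TPM against 41.5 to 42.9) and low in budesonide library 2 at 1 h (44.5 TPM against 46.3 to 46.7). KLF15 was low in library 4 with IL-1β at 24 h (13.9 TPM against 35.8 to 43.0) and with budesonide at 12 h (21.7 TPM against 26.1 to 26.2).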

How the results depend on the processing

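None of the 60 called member comparisons changed direction under any alternative tried. 5 lost their call in at least 1 of the 9 alternative settings and 8 when 1 library was left out, and 6 and 9 other comparisons gained one. Those lost in a setting were KLF2 with cotreatment against IL-1β at 12 h (0.90 without the 5 farthest libraries) and at 24 h (0.91 with a pseudocount of 1), the KLF4 interaction at 12 h (0.96 after quantile normalization), KLF10 with IL-1β at 12 h (0.99 after quantile normalization), and the KLF6 interaction at 1 h, whose adjusted p was 0.0753 with a pseudocount of 0.1, 0.0644 without a filter, 0.0868 with a mean of at least 5 TPM and 0.0995 in a separate fit for each time. A mean of at least 5 TPM leaves KLF9 out, so the member calls came to 6 for budesonide against NS (10 otherwise) and 7 for cotreatment against IL-1β (11 otherwise). The cause is that construction. With that filter, calls over all genes and times were 2315 for IL-1β against NS (3888 otherwise), 1759 for budesonide (2729) and 2316 for cotreatment (3790), 1580 for cotreatment against IL-1β (2702) and 984 against budesonide (1790), 851 interactions (1540), 1418 for 24 h minus 1 h (2187) and 47 for NS (84).

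Leaving out 1 library moved the number of member calls between 8 and 10 for IL-1β against NS, 10 and 11 for budesonide, 10 and 13 for cotreatment against IL-1β, 5 and 8 against budesonide, and 3 and 5 for the interaction, and left 16 for cotreatment against NS, 4 for 24 h minus 1 h and 0 for NS. Libraries that share a number were compared across treatments at each time: their deviations from the group means had a correlation of -0.12 to 0.83 over 114 pairs, 111 of them above 0.1 (median 0.27, against -0.09 between different numbers), and 77 of 78 libraries had their highest mean correlation with their own number. Libraries of the same number thus mostly shared deviations. Since not every pair passed 0.1 and the labels do not tie a number to an experiment, the main fit had no block. Its SEs, p-values and values with 1 library left out ignore what libraries of the same number share. With the replicate block the member calls were 9 for IL-1β, 10 for budesonide and 16 for cotreatment against NS, the same as without it, and it changed no called member comparison. No alternative scaling moved the median of all genes by more than 0.071. TPM values without counts do not show how much of the spread of low members such as KLF9 is counting error. Part of the KLF9 spread went with the library number, as the library numbered 3 was the highest of every group that has one.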
